A study of Mus musculus with 6 samples.

Results

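The 9 genes described here are neighbours of Top2b on mouse chromosome 14: Nek10, Oxsm and Ngly1 on one side, and Rarb, Thrb, Nr1d2, Nkiras1, Ube2e1 and Ube2e2 on the other. They were chosen by position, as named genes near Top2b, and are 9 of the 78298 genes in the deposited table. The question was whether an allele edited at Top2b came with different transcript levels of the genes around it. Polyadenylated RNA of the left brain was sequenced from male mice in 6 libraries. The 3 Top2b-low mice were homozygotes of an allele made with CRISPR/Cas9, in which an auxin-inducible degron tag precedes the coding sequence of Top2b at its 5′ end, and the other 3 mice were wild type. No drug was given to either genotype, and no auxin is named in the labels, so by the labels the genotypes differed in the allele alone. The labels name no Cre or other transgene, and do not say how many founders the allele came from. Age at collection is given as 10 weeks in one place and as 3.5 months in another, for both genotypes.

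Top2b encodes DNA topoisomerase II beta, the form of the enzyme found in postmitotic cells such as neurons, which passes one DNA duplex through a break in another to relieve tangles and supercoils. Neighbouring genes can share more than position: divergent genes can start from a common stretch of promoter DNA, convergent genes can run into each other at their ends, and distant enhancers can act on several promoters in one chromatin domain. Several of these neighbours are regulators of brain gene expression. Rarb and Thrb encode nuclear receptors for retinoic acid and thyroid hormone, and Nr1d2 encodes REV-ERB beta, a heme-binding repressor of the circadian clock.

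A few stretches of the DNA at this locus are printed because the values below refer to them. In the reference annotation (GENCODE vM21, used for names, order and exon length) Top2b lies between Ngly1 and Rarb, and its 3′ end overlaps that of Rarb on the other strand. The first 60 coding bases of transcript Top2b-201 (build GRCm38) are shown because the degron tag was placed there. Capitals mark the start codon, and the whole transcript codes for 1612 residues.
Top2b coding start: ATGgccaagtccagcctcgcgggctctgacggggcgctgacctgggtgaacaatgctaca

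Oxsm and Ngly1 point away from each other, and 137 bases separate one annotated Oxsm start from the Ngly1 start (RefSeq, GRCm38.p6, chr14:16249177-16249313, printed on the Ngly1 strand). Of the other Oxsm starts, that at 16249808 lies past the Ngly1 start, and that at 16243331 lies on the side away from Ngly1. Capitals mark GC boxes, which read GGGCGG on the opposite strand.
Oxsm to Ngly1 stretch: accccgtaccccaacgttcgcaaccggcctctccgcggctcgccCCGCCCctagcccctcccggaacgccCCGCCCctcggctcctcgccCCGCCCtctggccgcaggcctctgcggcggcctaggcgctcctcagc
The stretch had 78.1% G and C and held 3 GC boxes. At least 1 GC box, on either strand, was found in 32.7% of 32851 annotated promoter windows. Those windows were 250 bases long, so that share is not one for 3 boxes in 137 bases. No TATAAA and no CCAAT stood in the stretch on either strand, which says only that those letters are not in it.

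Rarb is itself a textbook target of retinoic acid receptors, through a direct repeat in its promoter. The 250 bases before its start (RefSeq, GRCm38.p6, chr14:16575477-16575726, minus strand) are shown because that repeat, in capitals, is the best known regulatory sequence among these neighbours.
Rarb promoter window: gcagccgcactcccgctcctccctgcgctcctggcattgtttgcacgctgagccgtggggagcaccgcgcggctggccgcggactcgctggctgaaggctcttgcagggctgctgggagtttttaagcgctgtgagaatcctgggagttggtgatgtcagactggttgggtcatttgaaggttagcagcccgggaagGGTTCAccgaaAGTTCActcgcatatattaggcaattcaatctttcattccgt
The repeat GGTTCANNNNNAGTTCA began 53 bases and ended 37 bases before the start. On both strands it was found in 2 of 32851 promoter windows, or 0.00609%. A match is a description of sequence and not a measure of binding.

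Sequencing depth ran from 16963067 to 35246703 reads per library, and each neighbour was covered by at least 57 reads in every library. Values below are normalised counts, that is, reads divided by the authors' size factor for the library. Markers of neurons, astrocytes, oligodendrocytes, microglia and endothelial cells were above 0 in all 6 libraries, which are labelled as brain. One library of each genotype, replicate 3 in both, has a name that begins with N22, and these stood apart from the other 4. Their summed counts of 8 cerebellar granule and Purkinje cell markers were 4085 in Top2b-low and 4319 in wild type, against 25976 to 32417 in the other 4 libraries. All 8 were lower in the N22 libraries, and most of what remained there was Calb1 (2810 and 2852) and Zic1 (1011 and 1208). Gabra6 had 0.592 and 0.711 in the N22 libraries, against 2020 to 2348 in the other 4. Fat2 had 3.55 and 6.40 against 2692 to 3496, and Cbln3 had 9.47 and 17.8 against 4615 to 6504. Fewer cells of a type and less RNA per cell cannot be told apart in such bulk samples. The name of the Top2b-low library of that pair also ends in dNdN, which the labels do not explain. The neighbours were therefore also compared in the 4 libraries outside N22. There the log2 fold change, Top2b-low minus wild type, was −0.32 for Nek10, 0.07 for Oxsm, 0.08 for Ngly1, 0.02 for Rarb, −0.05 for Thrb, −0.17 for Nr1d2, −0.06 for Nkiras1, −0.14 for Ube2e1 and −0.02 for Ube2e2. None of these was called (limma).

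Top2b, the edited gene, checks the labels. Its normalised counts were 2152, 2314 and 1965 in Top2b-low libraries, against 3160, 3014 and 2485 in wild-type libraries. Every Top2b-low library lay below every wild-type library. The log2 fold change was −0.42 (SE 0.11), a level lower by 25.5% with a 95% interval from −37.9% to −10.6%. The unadjusted p was 0.00629 and the p adjusted over 17391 genes was 0.99997 (limma). A two-sided exact permutation test gave p = 0.1, the smallest that 3 libraries against 3 allow. With a term for the N22 libraries the adjusted p was 0.224 in limma and 3.42e-05 in DESeq2, and with a replicate block it was 0.395 in limma and 0.000634 in DESeq2. Without Top2b-low replicate 1 and with the N22 term limma gave 0.0437.

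**Figure D1:**
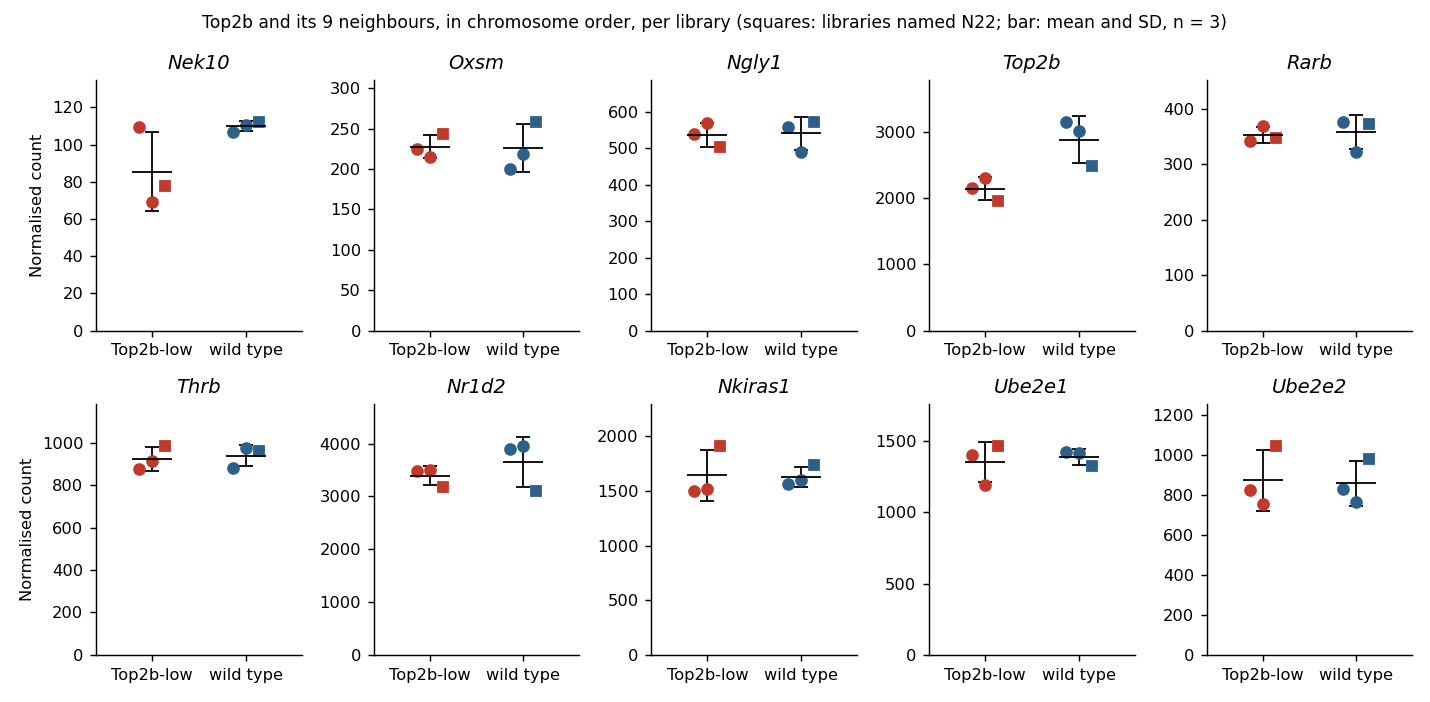
Normalised counts of Top2b and its 9 neighbours in chromosome order, with Top2b-low libraries (red) left of wild-type libraries (blue) in each panel, every y axis starting at 0. Points are libraries, squares mark the 2 libraries named N22, and the bars give the mean and SD of 3. Only the Top2b panel shows groups that do not overlap.

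For none of the 9 neighbours did a difference between the genotypes pass the test. No neighbour passed an adjusted p of 0.05 in limma, in edgeR or in DESeq2, and none had an unadjusted p under 0.05 in limma. This sits on a background of 0% of all 17391 genes called, with 1.51% (262 genes) at an unadjusted p under 0.05 in limma, 1.44% (250) in edgeR and 0.955% (166) in DESeq2. In all 9 the range of the Top2b-low libraries overlapped that of the wild-type libraries, where 5.74% of all genes did not overlap. Fold changes were below 0 for 6 neighbours and above 0 for 3, with a median of −0.02 on the log2 scale beside −0.00 for all genes tested. For 8 of the 9 the estimate was within 10% of no change. The adjusted p was 0.99997 for every neighbour in the fit by genotype alone. Without Top2b-low replicate 1 limma called 1 gene, or 64 genes with the N22 term, again with none of the neighbours among them.

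The intervals say how large a difference could have been missed. Apart from Nek10, the lowest bound among the neighbours was −21.8% and the highest 29.0%. In 8 of the 9 the 95% interval lay wholly above the estimate of −25.5% for Top2b itself. The exception was Nek10, the shallowest of the 9. The Top2b estimate had its own interval, from −37.9% to −10.6%, which overlapped those of all 9. The same 8 lay above the Top2b estimate with the N22 term in the model. There the Top2b interval ran from −32.0% to −18.3%, below those of the 8. Setting intervals side by side is not a test of a difference between Top2b and a neighbour.

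**Figure D2:**
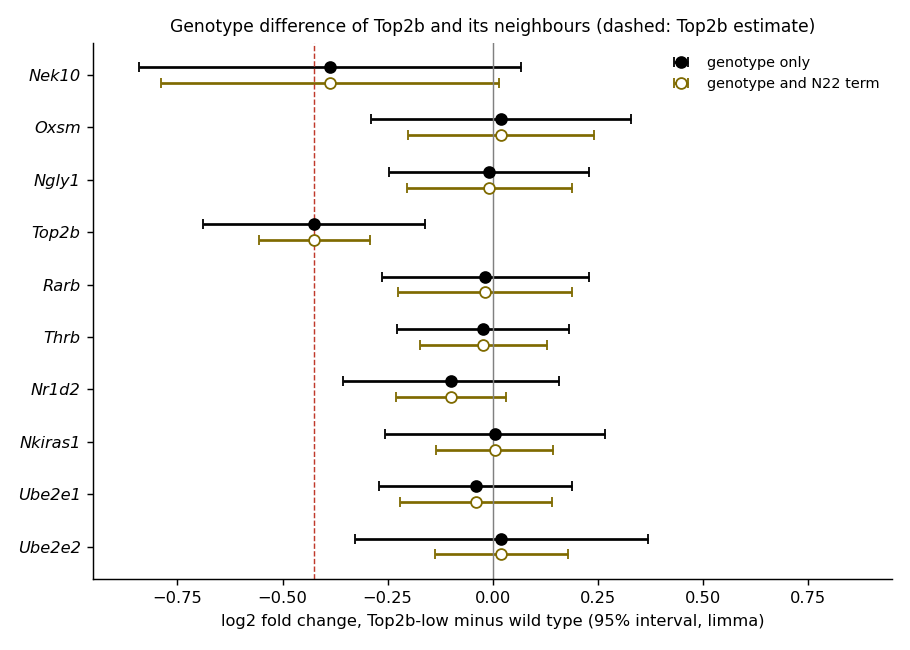
Log2 fold changes, Top2b-low minus wild type, of Top2b and its neighbours from top to bottom in chromosome order, with 95% intervals from limma without (black) and with (open, ochre) a term for the N22 libraries. The dashed line is the Top2b estimate of −0.42, which only the Nek10 and Top2b intervals reach. Without the N22 term the Top2b interval overlaps those of all the neighbours.

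The nuclear receptors come first. Rarb, the retinoic acid receptor that heterodimerises with RXR on repeats like the one printed above, lies next to Top2b and shares its 3′ end. Its normalised counts were 341, 368 and 347 in Top2b-low libraries, against 377, 322 and 373 in wild-type libraries. The wild-type libraries held both the highest and the lowest value, so the Top2b-low range lay inside theirs. Means were 352 ± 14.1 and 357 ± 30.4 (SD, n = 3 each), a log2 fold change of −0.02 (SE 0.10) with a 95% interval from −16.7% to 17.1%. The exact permutation p was 0.8. Where 2 genes overlap at their ends, reads can be split between them only if counting used strand, which is not given in the sources used here. Top2b was below the wild-type range in all 3 Top2b-low libraries and Rarb in none.

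The other genes of retinoic acid signalling gave a similar picture. Of 21 listed genes 19 were tested, 13 were higher and 6 lower in Top2b-low, none was called, and their median log2 fold change was 0.02. The smallest p belonged to Dhrs3, a retinaldehyde reductase that limits retinoic acid synthesis, at 226 ± 16.4 in Top2b-low and 200 ± 24.98 in wild type (log2 fold change 0.18). Ncor1, a corepressor of unliganded nuclear receptors, followed at 5126 ± 532 in Top2b-low and 4743 ± 432 in wild type (0.11). Groups overlapped for both genes.

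Thrb, the thyroid hormone receptor that mediates hormone feedback and sensory development, had normalised counts of 874, 914 and 984 in Top2b-low libraries, against 881, 974 and 962 in wild-type libraries. The lowest and the highest value were both Top2b-low. Its log2 fold change was −0.02 (SE 0.09), with a 95% interval from −14.6% to 13.4%, the narrowest of the 9. Of the 16 genes listed for thyroid hormone signalling all were tested, 6 were higher and 10 lower, none was called, and the median was −0.04. Dio3, the deiodinase that inactivates thyroid hormone, had 22.2 ± 5.71 in Top2b-low and 33.8 ± 5.35 in wild type (log2 fold change −0.60, unadjusted p 0.0644). Slc16a10, a transporter of aromatic amino acids and thyroid hormone, had 85.6 ± 15.5 in Top2b-low and 65.8 ± 5.63 in wild type (0.36, unadjusted p 0.0851), and was the single list member with groups that did not overlap. Both p-values were 0.99997 after adjustment over all genes.

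Nr1d2, the clock repressor that acts with its relative Nr1d1 on Bmal1, was the most abundant neighbour. It had 3477.5, 3508 and 3183 normalised counts in Top2b-low libraries, against 3894, 3958 and 3097 in wild-type libraries. The lowest library was the wild-type one named N22, and without that pair both Top2b-low libraries lay below both wild-type libraries. Nkiras1 and Ube2e1 showed the same order in those 4 libraries, and the share over all genes was not computed. The Nr1d2 difference, Top2b-low minus wild type, was −11.02% among the 4 libraries outside N22 and 2.79% in the N22 pair. That contrast between pairs did not pass (interaction adjusted p 0.997 in limma). Over all 6 libraries the log2 fold change was −0.10 (SE 0.11), with an interval from −21.8% to 11.5% and an exact permutation p of 0.5. With the N22 term the interval narrowed to −14.8% to 2.26% and the adjusted p was 0.914. Without wild type replicate 3 the log2 fold change was −0.21. It was −0.05 without Top2b-low replicate 3 or wild type replicate 1, and −0.036 without wild type replicate 2. These fits had no N22 term, and with the term kept omissions of single libraries gave −0.169 to −0.0726.

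All 22 listed clock genes were tested. In Top2b-low brains 14 were higher and 8 lower, none was called, and the median log2 fold change was 0.01. Per2, a repressor of the clock's negative limb, had 809 ± 59.0 in Top2b-low and 974 ± 175 in wild type (log2 fold change −0.25, unadjusted p 0.107). Rorb, an activator that competes with REV-ERB proteins for their sites, had 700.2 ± 39.5 in Top2b-low and 630.1 ± 64.4 in wild type (0.16). The labels give the light cycle of the animal house but no time of day for tissue collection, and its part in the Nr1d2 and Per2 values was not tested.

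Ngly1 and Oxsm are the divergent pair with the GC-rich stretch between a start of each. In the reference annotation these genes also overlap on opposite strands, so reads there can be split between them only if counting used strand. Ngly1 encodes the cytosolic peptide N-glycanase, which strips sugars from misfolded glycoproteins exported from the endoplasmic reticulum. It had 538, 569 and 503 normalised counts in Top2b-low libraries, against 559, 490.04 and 573 in wild-type libraries. Groups were interleaved, the means were 537 ± 33.0 and 541 ± 44.4 (SD, n = 3 each), and the 95% interval ran from −15.7% to 17.2%. Oxsm encodes the mitochondrial 3-oxoacyl-ACP synthase that elongates fatty acids on the way to lipoic acid. Its normalised counts were 225, 215 and 244 in Top2b-low libraries, against 200.4, 218 and 259 in wild-type libraries. These too were interleaved, at 228 ± 14.6 in Top2b-low and 226 ± 30.0 in wild type, with an interval from −18.1% to 25.6%. Across the 6 libraries the pair did not move as one: the N22 libraries held the 2 highest values of Oxsm, and the highest and one of the lowest of Ngly1. Antisense transcript Gm47794 lies within Oxsm and had 16.0, 23.1 and 10.1 normalised counts in Top2b-low libraries, against 3.64, 13.8 and 9.96 in wild-type libraries. Its log2 fold change of 0.86 was not called (unadjusted p 0.151), and without knowledge of stranded counting its reads and those of Oxsm cannot be told apart.

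Estimates in the lists around these enzymes had mixed signs. All 21 genes listed for deglycosylation and endoplasmic reticulum associated degradation were tested, with 10 higher, 11 lower, none called and a median of −0.00. Herpud1, an induced member of the retrotranslocation complex, had 970 ± 51.7 in Top2b-low and 1113 ± 57.7 in wild type, groups that did not overlap (log2 fold change −0.20, unadjusted p 0.0490, adjusted p 0.99997, limma). The next smallest p was that of Sel1l3, on the list as a relative of the adaptor Sel1l, at 1730 ± 204 in Top2b-low and 1563 ± 175 in wild type (0.15). For mitochondrial fatty acid synthesis and lipoylation 12 of 13 genes were tested, with 4 higher, 8 lower, none called and a median of −0.01. Mecr, the reductase that follows Oxsm in that cycle, had 190, 202 and 222 in Top2b-low libraries, against 264, 237 and 224 in wild-type libraries. Its groups did not overlap, by a margin between 222 and 224, and its log2 fold change of −0.24 had an unadjusted p of 0.0870. Cbr4, a subunit of the ketoacyl reductase step, differed by 0.18 with overlapping groups.

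Nkiras1, Ube2e1 and Ube2e2 form the far group on the Rarb side. Nkiras1 encodes kappaB-Ras 1, a small GTPase-like protein that slows degradation of the NF-kB inhibitor. It had 1504, 1519 and 1914 normalised counts in Top2b-low libraries, against 1561, 1598 and 1735 in wild-type libraries. The highest value in each genotype was the N22 library. The log2 fold change was 0.00 (SE 0.11), with an interval from −16.3% to 20.3%. Nkiras1 overlaps Rpl15 at its 5′ end and Ube2e1 at its 3′ end, each on the opposite strand. Rpl15, which encodes a protein of the large ribosomal subunit and has near-identical copies elsewhere in the genome, had 3027, 2706 and 3501 in Top2b-low libraries, against 3128, 2868 and 3356 in wild-type libraries. In that gene, as in Nkiras1, the N22 library was the highest of each genotype.

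All 15 genes listed as NF-kB inhibitors and subunits were tested, 10 higher and 5 lower, none called, with a median of 0.05. Nfkbia, the inhibitor IkB alpha, had 381, 246 and 306 in Top2b-low libraries, against 386, 436 and 391 in wild-type libraries. Its groups did not overlap, although one Top2b-low library was close to the wild-type range (log2 fold change −0.40, unadjusted p 0.0445, adjusted p 0.99997, limma). Bcl3, an atypical inhibitor family member, was near the floor of the filter at 18.5, 4.86 and 5.32 in Top2b-low libraries, against 19.4, 22.6 and 8.53 in wild-type libraries.

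Ube2e1 and Ube2e2 encode closely related ubiquitin-conjugating enzymes with extended N-terminal tails. Ube2e1 had 1399, 1193 and 1465 normalised counts in Top2b-low libraries, against 1424, 1415 and 1321 in wild-type libraries. Top2b-low libraries held both its extremes (log2 fold change −0.04, SE 0.10, interval from −17.1% to 13.999%). Ube2e2 had 823, 755 and 1046 in Top2b-low libraries, against 832, 763 and 981 in wild-type libraries. Libraries of the same replicate number lay close together, with the N22 library far above the other 2 in each genotype, and the interval ran from −20.3% to 29.0%. Of 29 other E2 enzymes listed, 28 were tested, with 11 higher, 17 lower, none called and a median of −0.02. Ube2l6, the interferon-inducible E2 of ISG15, had 641, 199 and 94.1 in Top2b-low libraries, against 104, 112 and 88.2 in wild-type libraries. One Top2b-low library stood far above the other 5, and the log2 fold change was 1.18 (unadjusted p 0.0904). Ube2a, the RAD6A enzyme, was the opposite case, with 736, 741 and 746 in Top2b-low libraries, against 711, 683 and 709 in wild-type libraries. Its groups did not overlap, at a log2 fold change of 0.08 (unadjusted p 0.328).

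Nek10 had the largest fold change of the 9 in either direction. It encodes a NIMA-related kinase known in other tissues from ciliated airway cells and DNA damage signalling. Its normalised counts were 109.5, 69.2 and 77.5 in Top2b-low libraries, against 107, 110.3 and 112 in wild-type libraries. The wild-type libraries sat within a few counts of each other, 2 Top2b-low libraries lay below them, and the other Top2b-low library lay among them. Means were 85.4 ± 21.3 and 109.8 ± 2.77 (SD, n = 3 each), a log2 fold change of −0.39 (SE 0.19) with an interval from −44.2% to 4.78%. The unadjusted p was 0.0844 and the exact permutation p 0.2. The value rested on 57 to 158 reads per library. It was 30.8% lower in Top2b-low than in wild type in the N22 pair and 19.6% lower in the other 4 libraries. With the N22 term the interval ran from −42.1% to 1.03%, the unadjusted p was 0.0575 and the adjusted p was 0.880 (limma). Its log2 fold change was −0.58 without Top2b-low replicate 1 and −0.25 without Top2b-low replicate 2, or −0.59 and −0.22 with the N22 term kept. The difference was not called under any alternative, the lowest adjusted p being 0.306.

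Markers of ciliated ependymal cells were looked at beside Nek10, since brain cilia of that kind occur in those cells. All 8 markers were found and tested, none was at 0, and 6 were lower and 2 higher in Top2b-low with none called. Pifo alone had groups that did not overlap, at 16.0, 10.9 and 11.2 in Top2b-low libraries, against 20.6, 18.8 and 20.6 in wild-type libraries. Its unadjusted p was 0.0672 (limma), and 5.74% of all genes tested did not overlap. Summed counts of the 8 markers were 858, 768 and 535 in Top2b-low libraries, against 800.4, 729 and 697 in wild-type libraries. The Top2b-low library with the lowest Nek10 value, replicate 2, had a marker sum inside the wild-type range, and replicate 3 had one below it. The sums of both N22 libraries, replicate 3 of each genotype, lay below those of the other libraries. The part of these cells in the Nek10 value was not tested. All 10 other NEK kinases were tested, with 4 higher, 6 lower, none called and a median of −0.03. Nek3 differed by 0.20 and Nek5 by 0.18 on the log2 scale, both with overlapping groups.

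**Figure D3:**
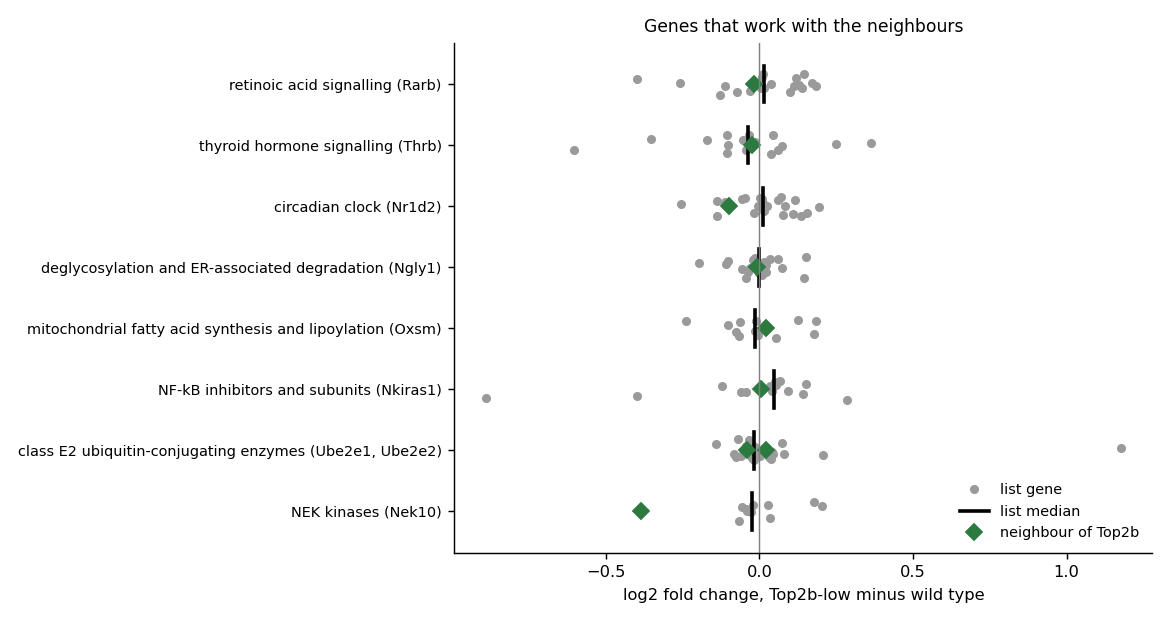
Log2 fold changes, Top2b-low minus wild type, of the tested genes in 8 lists of genes that work with the neighbours (grey points, spread vertically for legibility), with each list's median (black bar) and the neighbour itself (green diamond). All 8 medians lie between −0.04 and 0.05, and no gene plotted was called.

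The rest of the chromosome gave the background for these values. Within 5 Mb of Top2b 168 genes other than Top2b were annotated and 53 were tested. Of those 26 were higher and 27 lower, and none was called or reached an unadjusted p of 0.05 (limma). In 2 the groups did not overlap, beside 5.74% of all genes tested. Their median log2 fold change was −0.01. Within 2 Mb 14 genes were tested, with a median of −0.02 and none without overlap. Across all 583 tested genes of chromosome 14 other than Top2b the median was −0.01. Of these, 12 had an unadjusted p under 0.05 in limma, beside 1.51% of all genes, and 35 had groups without overlap, beside 5.74%. Ube2e2 was the one neighbour outside the 2 Mb window. Besides the other neighbours and Rpl15, the protein-coding genes tested within 2 Mb were Slc4a7 and Lrrc3b. Slc4a7, a bicarbonate transporter, differed by 0.01. Lrrc3b, a leucine-rich repeat membrane protein, had 202, 254 and 213 in Top2b-low libraries, against 287, 246 and 241 in wild-type libraries (log2 fold change −0.21, unadjusted p 0.156). Of the noncoding genes there, B230110C06Rik differed by −0.07 and Gm47798 by 0.13, neither called.

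**Figure D4:**
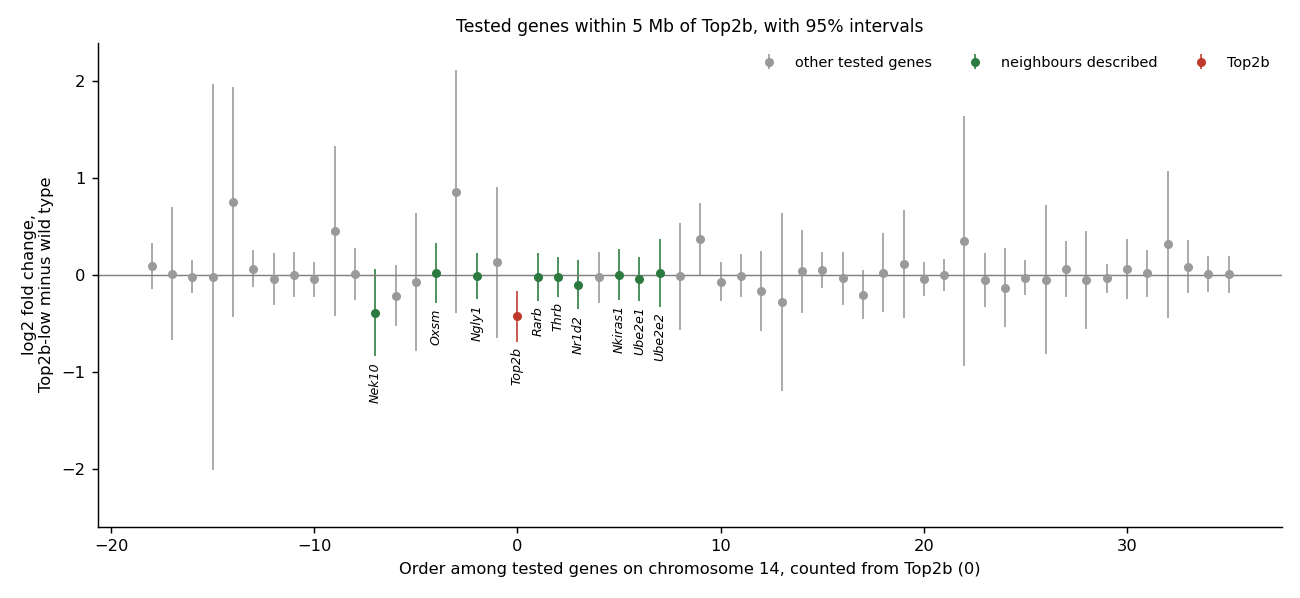
Log2 fold changes, Top2b-low minus wild type, with 95% intervals for Top2b and the 53 other tested genes within 5 Mb of it, by order among tested genes counted from Top2b at 0. Top2b (red) at −0.42 has an interval below 0, and the intervals of the 9 neighbours (green) all include 0.

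The level of each neighbour relative to Top2b in the same library was examined as well, a measure added after the values had been seen. If a neighbour had fallen with Top2b, this ratio would be equal in the genotypes. Top2b was itself lower in every Top2b-low library, so a gene that did not change would tend to give a higher ratio. A higher ratio is thus no trait particular to a neighbour, and its p-value reflects the Top2b difference as well. The ratio was higher in Top2b-low without overlap for 4 of the 9, namely Ngly1, Rarb, Thrb and Nr1d2, where 47.9% of all genes showed the same. Nr1d2 stood at 1.58 ± 0.0588 times Top2b in Top2b-low and 1.26 ± 0.0432 times in wild type, and Rarb at 0.165 ± 0.0104 and 0.125 ± 0.0222 (SD, n = 3 each, exact permutation p = 0.1 for both). For Nek10 the ratio was 0.0401 ± 0.0105 in Top2b-low and 0.0385 ± 0.00595 in wild type, with an exact permutation p of 0.9. Nek10 therefore could not be told from a gene that fell as far as Top2b, nor from one that did not change.

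Per kilobase of annotated exon the neighbours spanned a wide range of levels. Nr1d2 was highest, at 627 ± 33.2 normalised counts per kb in Top2b-low and 675 ± 88.7 in wild type. Ube2e1 had 303 ± 31.8 in Top2b-low and 311 ± 12.8 in wild type, and Nkiras1 had 299.7 ± 42.4 and 297 ± 16.7, so these 2 did not differ beyond their spread. Ube2e2 came next among the neighbours, at 189 ± 32.9 in Top2b-low and 186 ± 24.1 in wild type. Top2b itself had 147 ± 12.0 in Top2b-low, below every Ube2e2 value there, and 198 ± 24.3 in wild type, where the values of both genes overlapped. Thrb stood at 125 ± 7.57 per kb in Top2b-low and 127 ± 6.84 in wild type. Ngly1 had 71.1 ± 4.36 per kb in Top2b-low and 71.6 ± 5.88 in wild type, and Rarb 66.9 ± 2.68 and 67.8 ± 5.77, again within their spread. Oxsm was at 55.3 ± 3.55 in Top2b-low and 54.7 ± 7.27 in wild type. Nek10 was lowest by far, at 7.21 ± 1.80 in Top2b-low and 9.27 ± 0.234 in wild type. The order of the neighbours was the same in both genotypes.

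Some neighbours differed by the N22 name, as many genes of the table did. The comparison of the 2 N22 libraries with the other 4, with genotype in the model, called 3 of the 9 neighbours (33.3%). The share over all genes was similar, at 28.0% (4864 of 17391, limma). Ube2e2 had 1046 and 981 normalised counts in the N22 libraries, against 755 to 832 in the other 4. It was 27.8% higher (log2 difference 0.35, 95% interval 13.8% to 43.5%, adjusted p 0.00703). Nkiras1 had 1914 and 1735 in the N22 libraries, against 1504 to 1598 in the other 4, and was 17.955% higher (0.24, adjusted p 0.0237). These are 2 of 9 called higher, where 11.3% of all genes were. Nr1d2 had 3183 and 3097 in the N22 libraries, against 3477.5 to 3958 in the other 4, and was 15.2% lower (−0.24, adjusted p 0.0187), in a direction in which 16.7% of genes were called. Oxsm also separated without overlap, at 244 and 259 in the N22 libraries against 200.4 to 225 in the other 4, but was not called (0.23, adjusted p 0.135). In all, 4 of the 9 did not overlap, against 49.3% of all genes. Neither count sets the neighbours apart from other genes.

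These calls rested on few libraries. Without wild type replicate 1 the adjusted p was 0.0544 for Nkiras1 and 0.0574 for Nr1d2, and without Top2b-low replicate 1 it was 0.0501 for Nkiras1. Nr1d2 had 0.0502 without wild type replicate 2. With a single N22 library left, Nkiras1 had 0.355 and Ube2e2 0.123 without Top2b-low replicate 3, and Nr1d2 had 0.311 without wild type replicate 3. The direction of all 3 was kept in each case. In limma without the intensity trend none of the 9 was called. Top2b itself was 15.8% lower in the N22 libraries (adjusted p 0.0161), which widened its spread within each genotype. Its call was lost without Top2b-low replicate 3 (0.0564), wild type replicate 1 (0.0553) or wild type replicate 3 (0.219). Rarb, Thrb, Ngly1, Ube2e1 and Nek10 were not called, with differences of 0.03, 0.10, −0.00, 0.04 and −0.06 on the log2 scale. No neighbour had a genotype difference that differed between the N22 pair and the other 4 by the interaction test, against 0.0230% of all genes.

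**Figure D5:**
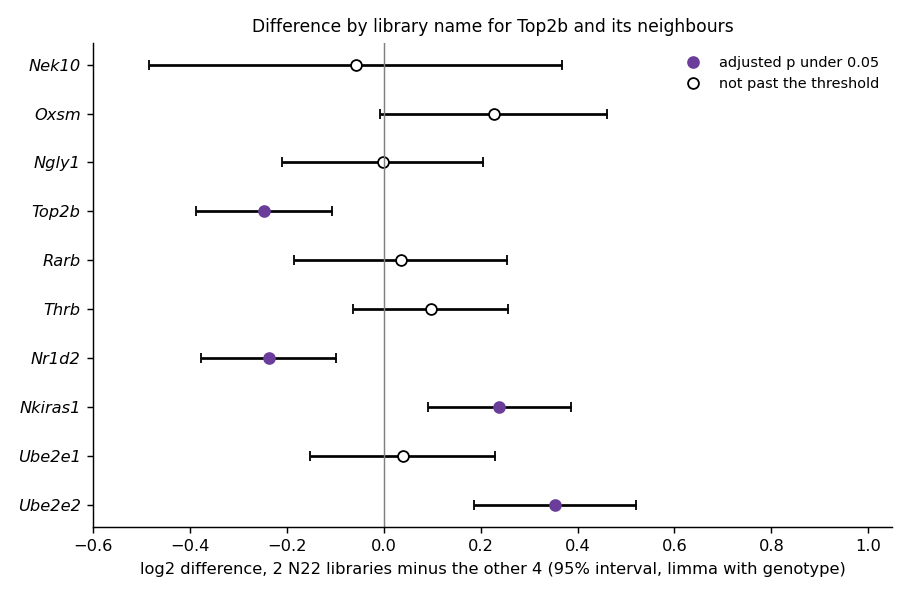
Log2 differences between the 2 libraries named N22 and the other 4, with genotype in the model, for Top2b and its neighbours in chromosome order, with 95% intervals. Filled points passed an adjusted p of 0.05, which were Top2b and Nr1d2 (lower) and Nkiras1 and Ube2e2 (higher).

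Most of the cell type marker sums moved along the same split. Summed counts of 8 striatal projection neuron markers, cells known for Rarb, were 17572 and 16143 in the N22 libraries, against 12952 to 15089 in the other 4. Rarb did not follow, at 347 and 373 in the N22 libraries and 322 to 377 in the other 4. The same sums by genotype were 15089, 13847 and 17572 in Top2b-low libraries, against 13153, 12952 and 16143 in wild-type libraries, with 7 of 8 markers higher and none called. All 6 oligodendrocyte markers were lower in Top2b-low, none called. Their sums were 122544, 119927 and 110506 in Top2b-low libraries, against 132133, 130019 and 117111 in wild-type libraries. Astrocyte marker sums were 19639 and 20877 in the N22 libraries, against 27859 to 28635 in the other 4. Oligodendrocyte sums were also lower there, at 110506 and 117111 against 119927 to 132133. So were endothelial sums (4403 and 4000 against 4679 to 4750) and ciliated ependymal sums (535 and 697 against 729 to 858). Microglia sums were higher in the N22 libraries, at 4058 and 3907 against 3689 to 3891. Neuron marker sums overlapped, at 108645 and 98477 in the N22 libraries against 97200 to 101320 in the other 4. Those of choroid plexus overlapped too. The part of these cell types in the differences of Ube2e2, Nkiras1 and Nr1d2 was not tested. Along N22, 12 of 22 clock genes, 8 of 16 thyroid hormone genes, 7 of 19 retinoic acid genes and 5 of 15 NF-kB genes were called, beside the 28.0% of all genes. In the other lists the counts were 6 of 21 deglycosylation and degradation genes, 6 of 28 E2 enzymes, 2 of 12 genes of mitochondrial fatty acid synthesis and 1 of 10 NEK kinases.

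Finally, the genes with the profile closest to a neighbour over the 6 libraries were identified among 12572 candidates, by the root mean square difference of centred log2 values. Nr1d2 was matched most closely by Dr1 (0.0102) and Hspbap1 (0.0153), where Nr1d2 itself had a root mean square of 0.132 about its own mean. Dr1 had 970, 968 and 883 normalised counts in Top2b-low libraries, against 1087, 1083 and 853 in wild-type libraries, lowest like Nr1d2 in the wild-type N22 library. Nkiras1 was closest to Cuta (0.0127) and Commd3 (0.0127), and Ube2e2 to Fkbp8 (0.0214) and Rpl19 (0.0222). Both sets of matches were highest in the N22 libraries. For Nek10 the closest were Dnaic1 (0.0721), a dynein chain of motile cilia, and Nfkbia (0.0774), where Nek10 itself had 0.277. Dnaic1 had 70.1, 49.8 and 50.9 in Top2b-low libraries, against 70.4, 72.7 and 68.3 in wild-type libraries, the same arrangement of 1 Top2b-low library among the wild type and 2 below. Further pairs were Apip and Lrtm2 for Rarb, Chd1l and Crbn for Thrb, Syt3 and Pllp for Ngly1, and Akr1b3 and Lztr1 for Oxsm, at 0.0190 to 0.0268. Top2b was closest to Lenep and Ormdl1, at 0.0672 and 0.0789. None of the matches named lies on chromosome 14. These likenesses are a description over 6 libraries and carry no test.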

How the data were processed

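Normalised counts, 1 signal value for every gene in every library, were deposited as a single table. The submitters' processing notes name RSEM and mm39. Neither the aligner, the annotation nor the use of strand in counting is given in the sources used here. All values were whole multiples of 1 read in their library (100%, tolerance 1e-06 reads), so reads were recovered, and the size factors (0.798 to 1.69) equalled those of DESeq2. A count of 3 reads corresponds to 1.77 to 3.76 normalised counts. Symbols matched 51498 of 78298 identifiers and at least 99.4% of reads. The reference annotation is GENCODE vM21 of GRCm38, so it served for names, order, exon length and, with RefSeq, the printed sequences.

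Genotypes were compared with limma 3.58.1 (intensity trend, two-sided, R 4.3.3) on log2(normalised count + 1) for 17391 genes (mean 10 or more), with Benjamini-Hochberg adjustment over all of them and a threshold of 0.05. Such fold changes understate those of low genes. Count tests on recovered reads (edgeR 4.0.16, DESeq2 1.42.0), other filters, pseudocounts of 0.5 and 5, other scalings, a replicate block, an N22 term, the 4 libraries outside N22 and omission of each library were alternatives. Omission with the N22 term kept was added after seeing the data. The fits were tested on simulated data. The members and gene lists were chosen with earlier results of these data known. Genes named are Top2b, its neighbours, tested genes within 2 Mb, the 2 list members of smallest p and the 2 closest profiles per neighbour, those of Ube2e1 not being reported here.

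Both genotypes carry replicate numbers 1 to 3 in the titles. Deviations from the genotype means correlated at 0.33, 0.35 and 0.68 between libraries of the same number, each above the limit of 0.1. A block by replicate number was therefore fitted as an alternative. The correlation of Top2b-low replicate 2 with wild type replicate 1 was 0.37, and that of Top2b-low replicate 1 with wild type replicate 2 was 0.24. These values set replicate 3, the N22 library, apart, and do not show how replicates 1 and 2 pair. The main fit and the exact permutation test took no account of pairing. Replicates were taken as separate mice, since the series text counts mice per genotype.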

Additional observations from a re-analysis of the deposited data

How the results depend on the processing

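No neighbour was called between genotypes under any of the 28 alternatives. Over all genes, limma called none. DESeq2 called 15 genes with the N22 term and 15 with the replicate block, Top2b among them each time. Limma and edgeR called 0 with the block, as without it, and apart from Top2b the block changed no call among the genes described. Omitting single libraries, with or without the N22 term, gave 0 to 64 genes. The 64 came without Top2b-low replicate 1 and with the N22 term. Without that library and without the term limma called 1 gene, Avp, named after its values were seen.

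Estimates near 0 changed sign, none called. In the 4 libraries outside N22 the log2 fold change was 0.0805 for Ngly1, 0.0239 for Rarb, −0.0635 for Nkiras1 and −0.0154 for Ube2e2. Omitting single libraries gave ranges of −0.594 to −0.220 for Nek10 and −0.213 to −0.0363 for Nr1d2, which kept their sign, and of −0.0616 to 0.122 for Oxsm, −0.0881 to 0.0805 for Ngly1, −0.0940 to 0.0344 for Rarb, −0.0693 to 0.0267 for Thrb, −0.109 to 0.0651 for Nkiras1, −0.135 to 0.0523 for Ube2e1 and −0.115 to 0.120 for Ube2e2, and −0.0375 to 0.0138 for the median of the E2 list.

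The N22 comparison called 2181 genes and 0 neighbours in limma without the trend, and 1 neighbour without the filter. Omissions left 1711 to 4576 genes and 1 to 3 neighbours called. Its log2 differences ranged from −0.183 to 0.0972 for Nek10, −0.136 to 0.131 for Ngly1, −0.0279 to 0.0974 for Rarb and −0.104 to 0.181 for Ube2e1. For Ngly1 they were 0.0185 with TMM scaling, 0.0167 in edgeR and 0.0469 after quantile normalization. The interaction called 4 genes in limma, 2 with a pseudocount of 5, 1 in edgeR and 23 in DESeq2, none of them a neighbour. The causes of these shifts were not tested. With 3 libraries per genotype, bounds of up to 29.0% limit what could be seen for the neighbours other than Nek10, and 57 to 158 reads limit Nek10.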
